A study of Homo sapiens with 12 samples.

Results

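The genes described here are 41 targets of the transcription factor NRF2 and enzymes that remove oxidants, followed across all 12 libraries of the series, which come from HaCaT, a human keratinocyte line that became immortal spontaneously. They are a list of symbols taken from knowledge of the pathway, drawn up when earlier results of these data were known and with no threshold on a measured value, and 40 of the 41 had a row in the deposited table of 45372 genes. SOD2, the mitochondrial superoxide dismutase, had none and was not analysed here. After the filter on low counts 37 members were among the 12878 genes tested. Wild-type HaCaT cells, as the labels call them, were irradiated with blue light of 408 nm from an LED source. Each session gave 50 J per cm2 at 4.6 mW per cm2 while the cells stood in buffered saline, with 3 sessions weekly for at most 14 weeks. The irradiated groups blue_3, blue_14 and blue_42 had received 3, 14 and 42 irradiations, and each had its own dark control, dark_3, dark_14 or dark_42. The dose was set by the submitters from its toxicity, so the irradiated cells sequenced are those that remained after repeated sessions. Each group had 2 libraries, lettered a and b, from 1 cell line, and the labels do not say whether the letters mark separate cultures. The error behind every p-value is therefore the spread between libraries, and it may be technical.

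NRF2, encoded by NFE2L2, is held in the cytoplasm by KEAP1, which presents it to a Cullin-3 ubiquitin ligase for degradation. Electrophiles and oxidants modify cysteines of KEAP1, and NRF2 then accumulates, pairs with small MAF proteins and binds the antioxidant response element near its target genes. Among those targets are enzymes that make and use glutathione, enzymes of the thioredoxin system, enzymes that regenerate NADPH, and reductases of quinones and carbonyls. NRF2 is regulated largely at the level of the protein, so its transcript does not report its activity. In keratinocytes this pathway is known for its part in the defence against light and electrophiles.

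Promoters are shown for the members that carry a letter match to the antioxidant response element and that passed a test described below. In RefSeq promoters of GRCh38.p14, the letters TGACNNNGC, searched on both strands in windows of 300 bases around each start, stood in 8 of 44 windows of 30 member genes, or 18.2%, against 4687 of 35116 windows of all genes, or 13.3%. The 7 member genes were GCLM, GSTP1, GPX2, PGD, MGST1, TXNRD1 and KEAP1. The letters TGACTCA, known as the site of AP-1, stood in 4.55% of the member windows and 4.95% of all windows, and they overlap the first motif in GSTP1. A match of letters is a description and shows no binding. Below are the 250 bases before the start of 3 genes, from 5′ to 3′ on the strand of the gene, with the match in capitals. It lies 34 bases before the start in GCLM, 66 in GSTP1 and 122 in GPX2, counted from its first base.
GCLM (GRCh38.p14, chr1:93909431-93909680, minus strand; the capitals read TGACTAAGC on the opposite strand): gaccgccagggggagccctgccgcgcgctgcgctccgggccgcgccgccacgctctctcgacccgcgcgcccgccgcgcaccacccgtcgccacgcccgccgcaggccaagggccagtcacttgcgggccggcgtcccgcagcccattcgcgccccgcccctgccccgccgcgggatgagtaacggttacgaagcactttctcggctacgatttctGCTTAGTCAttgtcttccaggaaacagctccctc
GSTP1 (GRCh38.p14, chr11:67583562-67583811, plus strand; the capitals read along the gene): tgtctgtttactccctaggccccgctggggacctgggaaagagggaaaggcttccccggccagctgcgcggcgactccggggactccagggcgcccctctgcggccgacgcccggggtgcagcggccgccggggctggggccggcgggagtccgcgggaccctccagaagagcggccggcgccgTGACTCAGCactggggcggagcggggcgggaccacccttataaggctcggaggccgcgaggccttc
GPX2 (GRCh38.p14, chr14:64942746-64942995, minus strand; the capitals read TGACTTAGC on the opposite strand): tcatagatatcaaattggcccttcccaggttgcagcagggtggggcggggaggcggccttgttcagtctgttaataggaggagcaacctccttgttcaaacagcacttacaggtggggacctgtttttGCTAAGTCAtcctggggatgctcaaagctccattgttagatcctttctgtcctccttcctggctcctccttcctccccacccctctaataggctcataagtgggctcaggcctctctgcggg

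Library totals ran from 2073160 counts in blue_14 b to 8183941 in blue_42 b. Besides blue_14 b, the libraries blue_14 a and dark_14 a were small, at 3517401 and 3561392 counts, and the other 9 held at least 6220751. Levels are given as CPM, counts scaled by TMM to a common library size. With 3′ tags, about 1 from a transcript, CPM can be set side by side between genes without dividing by length. All 18 keratinocyte markers had counts in these cells, and their summed level ran from 8181 CPM in dark_42 b to 12040 CPM in blue_14 a. Fewer cells of a type and less RNA per cell cannot be told apart in these bulk libraries.

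The members together held 0.713% to 0.883% of all counts of a library, lowest in blue_42 b and highest in blue_3 a. FTH1, the ferritin heavy chain that stores iron, was the most abundant at a mean of 1889 CPM over the 12 libraries. It was followed by GSTP1, the pi-class glutathione transferase, at 1457 CPM, and by the peroxiredoxin PRDX1 at 948 CPM. Thioredoxin (TXN) averaged 508 CPM and the ferritin light chain FTL 323 CPM. NFE2L2 averaged 185 CPM and KEAP1 48.7 CPM. At the low end stood HMOX1 at 2.39 CPM, GLRX at 2.92 CPM and OSGIN1 at 3.67 CPM. In all, 31 tested members averaged above 10 CPM. Over the 12 libraries the coefficient of variation of these 31 had a median of 12.6%, against 13.7% for the 8688 tested genes above 10 CPM. GPX4 varied least, at 6.13%, and HMOX1 most, at 40.0%. Among members above 10 CPM the highest value was that of NQO1, at 30.2%.

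The 3 untested members were near or at 0. MGST1, a microsomal glutathione transferase, had 0 to 3 counts a library and reached 0.485 CPM. GPX3, the secreted glutathione peroxidase, had 0 to 2 counts. SRXN1, the sulfiredoxin that repairs overoxidised peroxiredoxins, had 0 counts in all 12 libraries, where 3 counts correspond to 0.364 to 1.43 CPM. Whether its 0 counts come from absent expression or from the annotation and the assignment of reads was not tested.

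**Figure D1:**
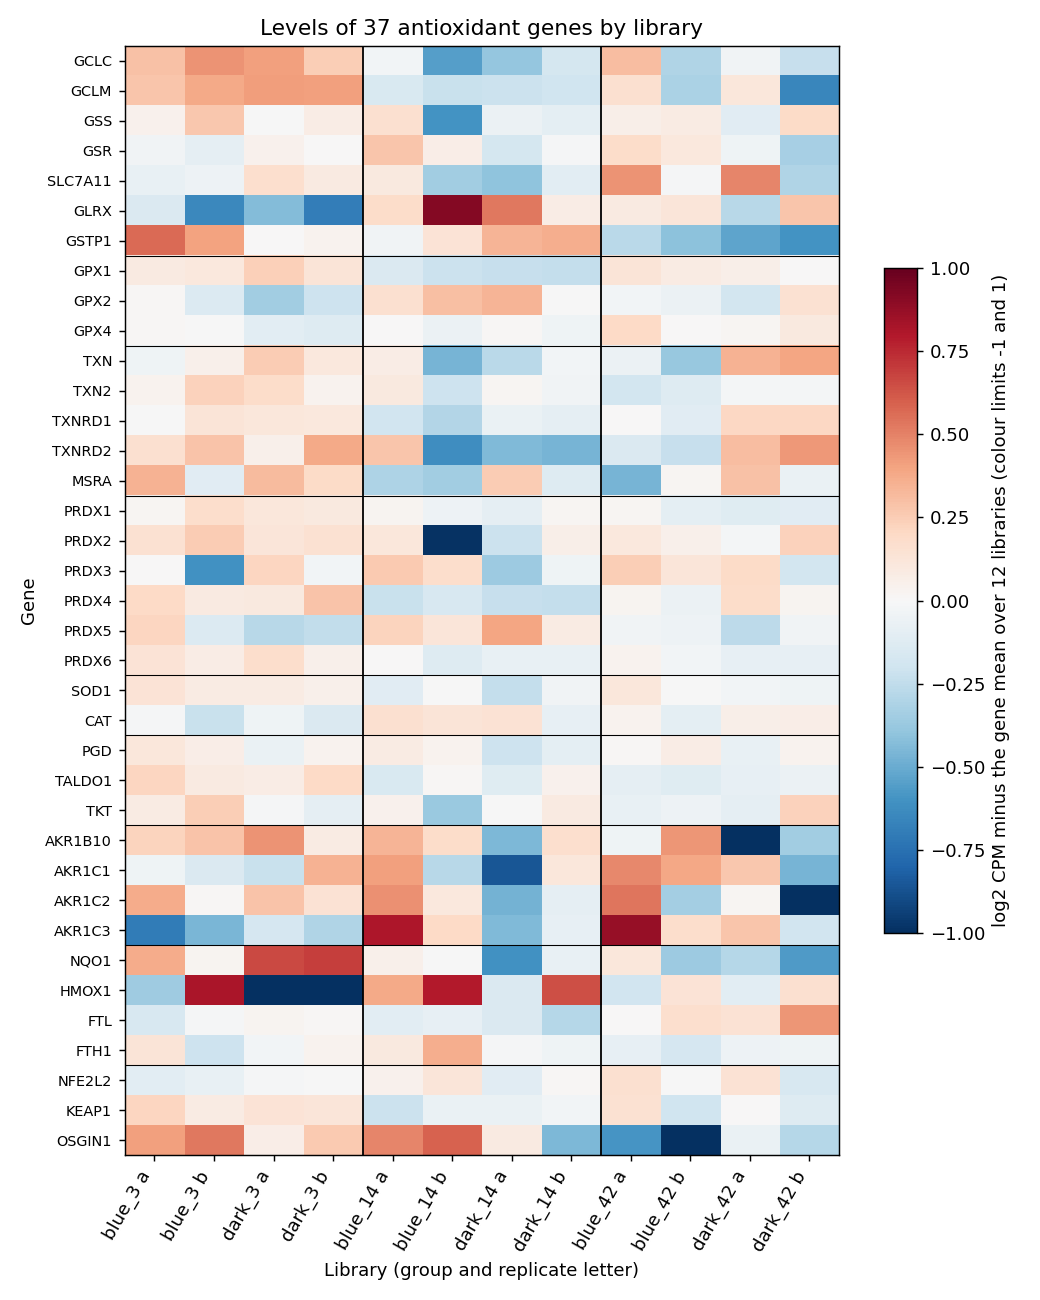
Level of the 37 tested members (rows, grouped by function) in each library (columns), as log2 CPM minus the mean of the gene over 12 libraries, with colours ending at -1 and 1. GCLC and GCLM are high in the 4 libraries of the 3-irradiation groups, NQO1 is highest in dark_3 a and b, and AKR1C3 is highest in blue_42 a.

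Blue light was first set against darkness at each irradiation number, where the question was whether the antioxidant genes answered an early, an intermediate or a long exposure. No member was called at any of the 3 stages by edgeR's quasi-likelihood test, where a call is an adjusted p under 0.05 over all 12878 genes. After 3 irradiations 0.0155% of all genes were called, after 14 none, and after 42 1.23%. Markers of other cell types moved between irradiated and dark cells as well. Both genes called after 3 irradiations, SYT1 and CELF4, belong to the list of 20 neuronal markers, of which 17 were tested. Of these, 15 lay above 0 after 3 irradiations (median 1.69), 1 after 14 (median -0.52) and 11 after 42 (median 0.25). The neuronal sum was 329.9 and 359.5 CPM in blue_3, against 269.8 and 284 CPM in dark_3. Of the 18 keratinocyte markers 10, 16 and 14 lay above 0 at the 3 stages (medians 0.02, 0.20 and 0.18), and SFN was called higher after 42. Their part in the results for the members was not tested.

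The smallest adjusted p of a member was 0.272 after 3, 0.804 after 14 and 0.0641 after 42 irradiations. Members with an unadjusted p under 0.05 numbered 4, 4 and 5, which is 10.8%, 10.8% and 13.5% of the 37, against 6.92%, 5.89% and 13.3% of all genes. DESeq2 called no member after 3 or 14 irradiations and 1, TXN, after 42. The median log2 difference of the members was -0.01, 0.06 and 0.06 at the 3 stages. Over fits without 1 library it ran from -0.034 to 0.028 after 3, from 0.015 to 0.11 after 14 and from -0.052 to 0.10 after 42, where it was below 0 without blue_42 a. The median of all genes lay within 0.02 of 0 at each. Members above 0 numbered 16, 25 and 22 of 37. The irradiated libraries lay wholly above or below their dark controls for 19, 17 and 17 members, or 51.4%, 45.9% and 45.9%, against 43.6%, 33.2% and 42.3% of all genes. The median standard error of a member's log2 difference was 0.132, 0.138 and 0.130.

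The light effect at one stage was also tested against that at another. No member was called for 42 minus 3, 42 minus 14 or 14 minus 3 irradiations, where 0.435%, 0.0544% and 0.0388% of all genes were called, with 5, 4 and 5 members at an unadjusted p under 0.05, against 11.3%, 8.04% and 8.0% of all genes. Averaged over the stages no member was called either, against 0.0699% of all genes, with 4 members at an unadjusted p under 0.05, against 8.29% of all genes. DESeq2 called 1 member, GSTP1, for 14 minus 3 and none for the other 3.

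**Figure D2:**
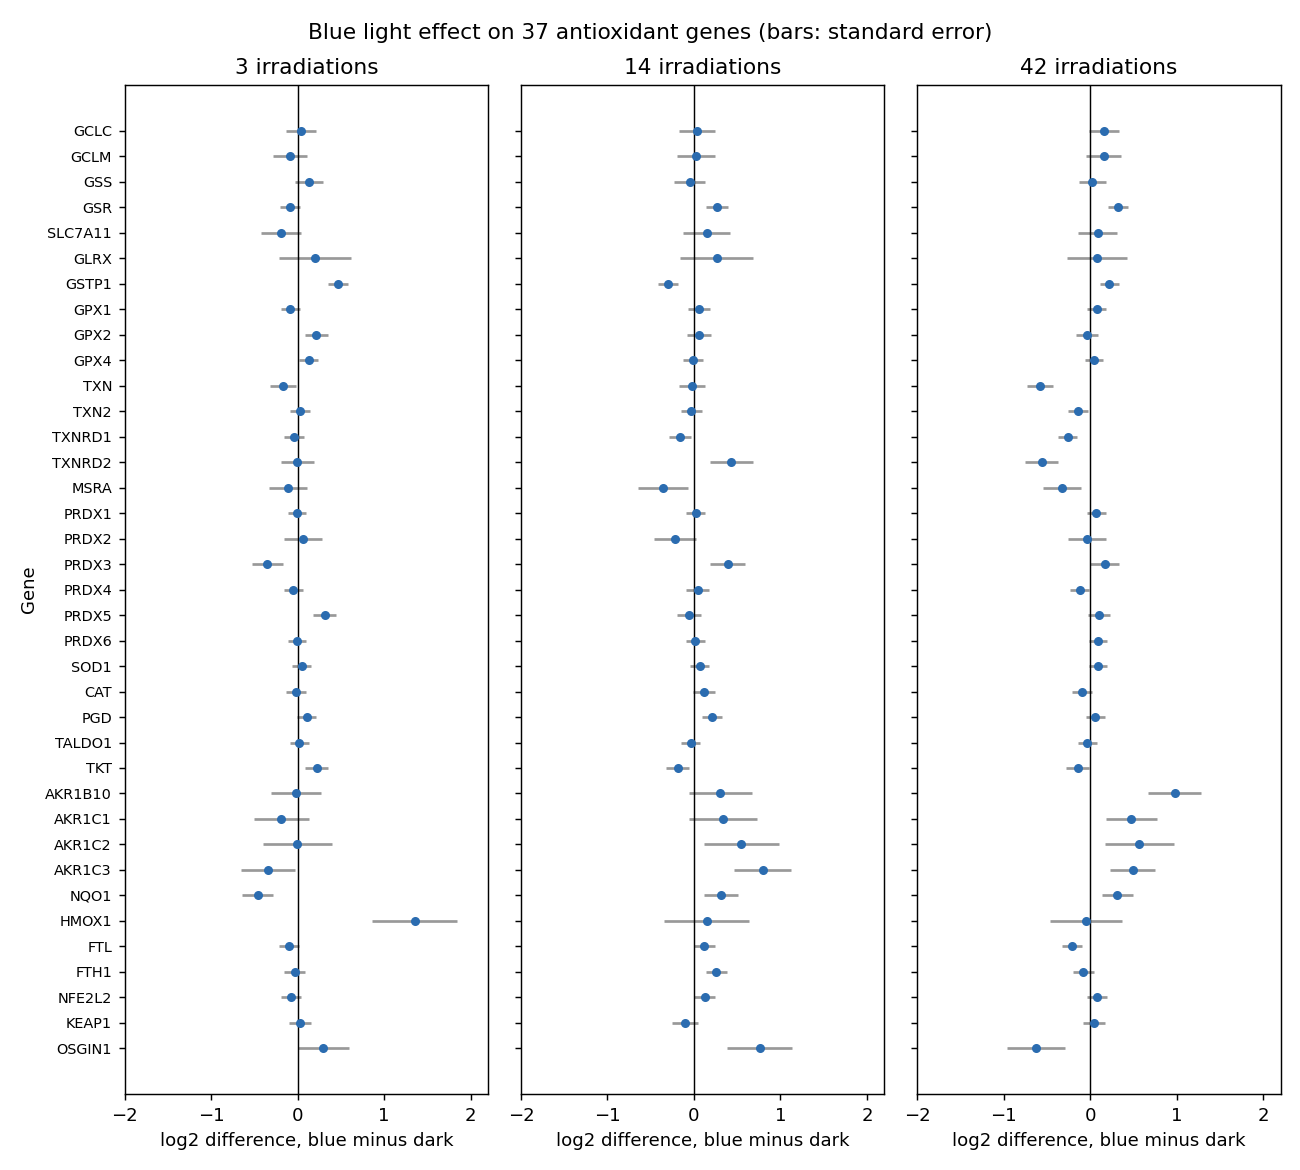
Log2 difference of irradiated minus dark cells (horizontal axis) for the 37 tested members after 3, 14 and 42 irradiations, with bars of 1 standard error over 2 libraries a group. The 5 thioredoxin system genes lie at or below -0.14 after 42 irradiations and the 4 aldo-keto reductases at or above 0.48, and no member passed the adjusted threshold.

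Larger differences stood along the series, between the groups matched to 14 or 42 irradiations and those matched to 3. Time in culture, irradiation number and any batch of library preparation cannot be told apart there, and the comparisons share libraries with each other. In dark_14 against dark_3, 2 members rose and 5 fell, together 18.9% of the 37, while 12.7% of all genes were called, 8.11% higher and 4.61% lower. In blue_14 against blue_3, 1 rose and 1 fell, or 5.41%, while 6.22% of all genes were called, 3.62% higher and 2.6% lower. Dark_42 against dark_3 gave 4 members, all lower, or 10.8%, while 17.7% of all genes were called, 9.47% higher and 8.26% lower. Blue_42 against blue_3 gave 1 higher and 2 lower, or 8.11%, while 7.78% of all genes were called, 4.4% higher and 3.39% lower. In dark_42 against dark_14, 3 rose and 1 fell, or 10.8%, while 7.04% of all genes were called, 1.81% higher and 5.23% lower. Blue_42 against blue_14 gave no call, against 0.241% of all genes, with 4 members at an unadjusted p under 0.05, or 10.8%, against 12.5% of all genes. DESeq2 gave none there either. The medians of the members in these 6 comparisons, in the same order, were -0.19, -0.11, -0.08, -0.09, 0.05 and -0.03, while the median of all genes lay within 0.02 of 0 in each.

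These counts rested on few libraries. For dark_14 against dark_3 only 1 call, NQO1, was left without dark_3 a, dark_3 b or dark_14 a, and 3 without dark_14 b, while a fit on the 4 compared libraries alone gave 12. For blue_14 against blue_3 no call was left without blue_14 b, blue_3 b, dark_3 a or dark_3 b, 1 without blue_3 a and 4 without blue_14 a. For dark_42 against dark_3 it was 2 without either dark_3 library, and for blue_42 against blue_3 it was 1 without blue_3 b. For dark_42 against dark_14, 2 were left without dark_14 a or dark_42 b and 1 without dark_14 b. Where a fit left 1 library in a group, that library was assumed to vary like the other groups.

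Marker genes moved along the series too. In dark_14 against dark_3, the comparison with most calls among members, 10 of 17 tested neuronal markers were called higher (median 2.12), as were all 4 tested fibroblast markers (median 2.61) and both tested erythroid markers (median 4.25), while of 18 keratinocyte markers 2 were higher and 1 lower. In dark_42 against dark_14, 11 neuronal, 3 fibroblast and 1 erythroid markers were called lower. In dark_42 against dark_3, 1 neuronal marker was called higher and 3 lower, and 4 keratinocyte markers were lower. In blue_14 against blue_3, 1 neuronal marker was lower and 3 keratinocyte markers were higher. In blue_42 against blue_3, 10 neuronal and 2 fibroblast markers were lower and 1 keratinocyte marker was higher. The neuronal sum was 329.9 and 359.5 CPM in blue_3, 250.2 and 216.5 CPM in blue_14 and 212 and 187 CPM in blue_42. In the dark it was 269.8 and 284 CPM in dark_3, 272 and 308 CPM in dark_14 and 215 and 158 CPM in dark_42. The keratinocyte sum was lowest in dark_42, at 8468 and 8181 CPM, against 10000 and 10290 CPM in dark_3. Over the 12 libraries the 10 fibroblast markers summed to 4.75 to 17.2 CPM and were all detected. Of 8 erythroid markers 4 had counts, and their sum ran from 0.950 CPM in dark_3 a to 44.0 CPM in dark_14 b. Melanocyte markers, of which 3 of 6 had counts, summed to 10.3 to 16.3 CPM, with TYR, TYRP1 and MLANA at 0. Leukocyte markers, of which 6 of 8 had counts, summed to 1.11 to 4.59 CPM. The part of these markers in the results was not tested.

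**Figure D3:**
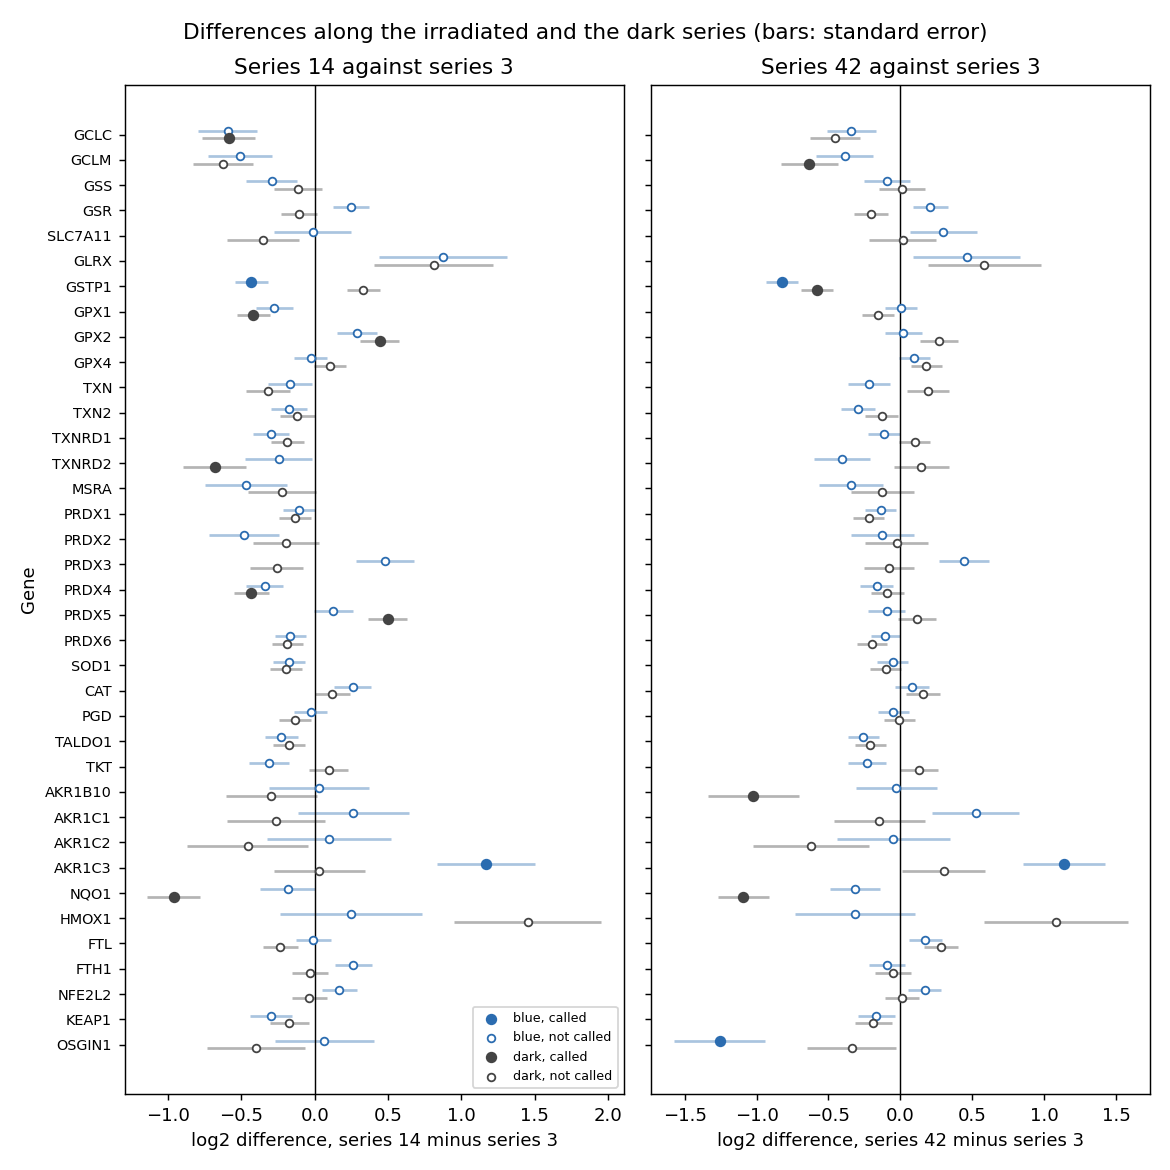
Log2 difference of the groups matched to 14 irradiations (left) or 42 (right) minus those matched to 3, in irradiated cells (blue) and dark controls (grey), with bars of 1 standard error; filled points passed an adjusted p of 0.05. NQO1 is filled only for the dark controls, at -0.96 and -1.09, and GSTP1 at 42 for both.

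Among the regulators, NFE2L2 (chr2:177227595-177392697, minus strand in GENCODE 29 on GRCh38) differed little between groups. Its level was 171 and 176 CPM in blue_3, against 183 and 184 CPM in dark_3. It was 189.9 and 200.2 CPM in blue_14, against 171 and 186 CPM in dark_14, and 206 and 184 CPM in blue_42, against 204 and 165 CPM in dark_42. The libraries overlapped after 42 irradiations, and the log2 differences were -0.08 ± 0.12, 0.13 ± 0.12 and 0.08 ± 0.12 (SE; adjusted p = 0.917, 0.919 and 0.837). KEAP1 (chr19:10486120-10503741, minus strand), the sensor, ranged from 41.9 CPM in blue_14 a to 56.2 CPM in blue_3 a. Its light differences were 0.02 ± 0.13, -0.10 ± 0.15 and 0.05 ± 0.13 (adjusted p = 0.982, 0.953 and 0.926). OSGIN1, an oxidative stress-induced growth inhibitor, is a member as a target of NRF2 and not as a regulator. Its level was low in every library. It had 2.32 and 1.70 CPM in blue_42, against 3.33 and 2.86 CPM in dark_42 and 4.63 and 5.01 CPM in blue_3. It fell in blue_42 against blue_3, by -1.26 ± 0.32 on the log2 scale as a signed difference (adjusted p = 0.0183). That call was lost without blue_42 b, blue_3 b or blue_3 a (adjusted p = 0.0702 to 0.229) and with DESeq2 (adjusted p = 0.102). Against the dark controls OSGIN1 differed by 0.76 ± 0.38 after 14 irradiations and -0.62 ± 0.34 after 42 (adjusted p = 0.834 and 0.445).

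Glutathione is made from cystine taken up by SLC7A11, in steps catalysed by glutamate-cysteine ligase (catalytic subunit GCLC, modifier subunit GCLM) and by glutathione synthetase (GSS). All 7 tested genes of synthesis and use lay above 0 after 42 irradiations, with a median of 0.16 and a range of 0.02 to 0.33, and none was called. After 14 irradiations 5 of 7 lay above 0 (median 0.04) and after 3 irradiations 4 of 7 (median 0.04). GSR, the glutathione reductase that returns oxidised glutathione to its reduced form with NADPH, showed the smallest adjusted p of the group after 42. It had 127 and 121 CPM in blue_42, against 109 and 88.7 CPM in dark_42. After 14 irradiations it had 136 and 117 CPM in blue_14, against 98.9 and 111 CPM in dark_14. The irradiated libraries were the higher ones at both stages, with no overlap, and the log2 differences were 0.33 ± 0.12 (adjusted p = 0.205) after 42 and 0.27 ± 0.13 (adjusted p = 0.834) after 14. Over fits without 1 library they ran from 0.19 to 0.48, lowest without dark_42 b, and from 0.15 to 0.37, lowest without blue_14 a. After 3 irradiations the difference was -0.09 ± 0.12.

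GCLC (chr6:53497341-53616970, minus strand) and GCLM (chr1:93885205-93909456, minus strand) were higher in both 3-irradiation groups than in most later libraries. GCLC had 35.0 and 24.3 CPM in blue_14 and 27.2 and 31.5 CPM in dark_14, against 43.6 and 48.5 CPM in blue_3 and 47.4 and 42.1 CPM in dark_3. All 4 libraries at 14 lay below all 4 at 3. It fell in dark_14 against dark_3 (-0.59 ± 0.18, adjusted p = 0.0412), and the difference in irradiated cells was -0.59 ± 0.20 (adjusted p = 0.0848). The GCLC call was lost without dark_14 b, dark_14 a, blue_3 b, dark_3 b or dark_3 a (adjusted p = 0.0534 to 0.241) and with DESeq2 (adjusted p = 0.0536). GCLM had 89.7 and 96.7 CPM in blue_3, 66.8 and 63.4 CPM in blue_14 and 82.9 and 59.5 CPM in blue_42. In the dark it had 99.3 and 98.5 CPM in dark_3, 63.8 and 64.5 CPM in dark_14 and 80.3 and 47.1 CPM in dark_42. The 4 libraries at 3 irradiations lay above every later library. The fall in dark_42 against dark_3 passed the test (-0.63 ± 0.20, adjusted p = 0.0448), while dark_14 against dark_3 did not (-0.62 ± 0.20, adjusted p = 0.0649). The GCLM call was lost without dark_42 b, blue_14 b, blue_14 a, dark_14 b, dark_14 a, blue_3 b, blue_3 a, dark_3 b or dark_3 a (adjusted p = 0.0627 to 0.280), in a fit on the compared libraries alone (adjusted p = 0.0588) and without all 14-irradiation libraries (adjusted p = 0.107). Without dark_42 b, the lowest library, its value was -0.30. Light differences of both subunits lay between -0.09 and 0.16.

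SLC7A11, the cystine importer, had 57.1 and 41.5 CPM in blue_42, against 58.6 and 33.9 CPM in dark_42. The 2 dark_42 libraries alone spanned most of its range over all 12, and it was called in no comparison. GSS ranged from 44.8 CPM in blue_14 b to 82.0 CPM in blue_3 b. GLRX, a glutaredoxin, stayed between 1.73 and 5.24 CPM. Neither was called.

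GSTP1 (chr11:67583595-67586656, plus strand), which conjugates glutathione to electrophiles, had 2087 and 1863 CPM in blue_3, against 1418 and 1444 CPM in dark_3. It had 1377 and 1550.0 CPM in blue_14, against 1784 and 1813 CPM in dark_14, and 1171 and 1061 CPM in blue_42, against 980.1 and 933 CPM in dark_42. The irradiated libraries were thus higher after 3 and 42 irradiations and lower after 14, without overlap at any stage. These light differences were 0.47 ± 0.11, -0.30 ± 0.11 and 0.22 ± 0.11 (adjusted p = 0.272, 0.804 and 0.403). The effect after 14 minus that after 3 was -0.76 ± 0.16 (adjusted p = 0.0793), which DESeq2, a fit without a filter on low counts, and fits without dark_42 a or dark_42 b called. The effect after 42 minus that after 14 was 0.52 ± 0.16 (adjusted p = 0.362).

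Along the series GSTP1 fell to its lowest levels in both 42-irradiation groups. The difference was -0.82 ± 0.11 in blue_42 against blue_3 (adjusted p = 8.85e-05) and -0.58 ± 0.11 in dark_42 against dark_3 (adjusted p = 0.00137). Against dark_14, dark_42 lay lower by a log2 difference of -0.91 ± 0.11 (adjusted p = 5.95e-05). These 3 calls held in every alternative that was run. The fall in blue_14 against blue_3 (-0.43 ± 0.11, adjusted p = 0.0275) was lost without blue_14 b, blue_14 a, blue_3 b, blue_3 a, dark_3 b or dark_3 a (adjusted p = 0.0555 to 0.119) and in a fit on the compared libraries alone (adjusted p = 0.110).

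Glutathione peroxidases reduce peroxides with glutathione, and GPX4 acts on lipid peroxides in membranes. Of the 3 tested, 2 lay above 0 at each stage against the dark controls, with values between -0.08 and 0.21 and no call. GPX4 held 114 to 144 CPM throughout. GPX1 (chr3:49357171-49358600, minus strand) had 45.7 and 45.5 CPM in dark_14, against 63.2 and 58.8 CPM in dark_3. Its dark_14 libraries lay close to each other and below both dark_3 libraries (-0.42 ± 0.12, adjusted p = 0.0221). In irradiated cells it had 48.5 and 46.25 CPM in blue_14, against 57.3 and 57.7 CPM in blue_3, also lower without overlap but not called. The GPX1 call was lost without dark_14 b, dark_14 a, dark_3 b or dark_3 a (adjusted p = 0.0917 to 0.194) and with DESeq2 (adjusted p = 0.0514). GPX2 (chr14:64939152-64942905, minus strand), known from the epithelium of the gut, stood the other way, at 142 and 112 CPM in dark_14, against 88.7 and 97.4 CPM in dark_3. It rose in that comparison (0.44 ± 0.13, adjusted p = 0.0347). In irradiated cells GPX2 had 125.9 and 138.7 CPM in blue_14, against 113.5 and 102.2 CPM in blue_3, also higher without overlap but not called. The GPX2 call was lost without blue_42 b, blue_42 a, dark_14 a, blue_3 a, dark_3 b or dark_3 a (adjusted p = 0.0507 to 0.438) and with DESeq2 (adjusted p = 0.0599), and its value was 0.25 without dark_14 a.

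In the thioredoxin system, TXN reduces disulfides in proteins and is itself recharged by thioredoxin reductase, TXNRD1 in the cytosol and TXNRD2 in mitochondria, with NADPH. The 5 tested genes include mitochondrial thioredoxin (TXN2), at 104.9 to 142.4 CPM, and the methionine sulfoxide reductase MSRA, at 7.48 to 13.1 CPM. All 5 lay below 0 after 42 irradiations, with a median of -0.33, and none was called. The irradiated libraries lay apart from the dark controls for 4 of the 5, against 42.3% of all genes. After 3 and 14 irradiations 1 of 5 lay above 0, with medians of -0.04 and -0.03. TXN (chr9:110243811-110256640, minus strand) had 481 and 384 CPM in blue_42, against 638 and 656 CPM in dark_42. Both irradiated libraries were lower than both dark ones, and dark_42 held the highest TXN levels of the 12 libraries. The difference was -0.58 ± 0.15 with an adjusted p of 0.0641, just outside the threshold. It was called with DESeq2 (adjusted p = 0.0212), without a filter on low counts (adjusted p = 0.000251), without blue_14 a (adjusted p = 0.0145), without blue_14 b (adjusted p = 0.0143) and without all 14-irradiation libraries (adjusted p = 0.0109). Over fits without 1 library the difference ran from -0.76 to -0.42, and over all alternatives the adjusted p ran from 0.000251 to 0.479.

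TXNRD2 (chr22:19875517-19941992, minus strand) had 12.6 and 11.9 CPM in blue_42, against 17.3 and 18.8 CPM in dark_42, a difference of -0.56 ± 0.19 (adjusted p = 0.174). TXNRD1 had 61.5 and 56.9 CPM in blue_42, against 70.7 and 70.8 CPM in dark_42, a difference of -0.26 ± 0.11 (adjusted p = 0.301). For both reductases the irradiated libraries were the lower ones, with no overlap. After 3 irradiations TXN and TXNRD1 differed by -0.17 ± 0.15 and -0.04 ± 0.11. The light effect after 42 minus that after 3 was -0.41 ± 0.21 for TXN (adjusted p = 0.486), -0.21 ± 0.16 for TXNRD1 (adjusted p = 0.660) and -0.55 ± 0.27 for TXNRD2 (adjusted p = 0.452). A lower level after 42 irradiations is therefore not shown to be particular to that stage.

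The dark controls themselves moved for these genes. TXN rose in dark_42 against dark_14, with 638 and 656 CPM in dark_42 and 416 and 492 CPM in dark_14 (0.51 ± 0.15, adjusted p = 0.0452). This TXN call was lost without dark_42 b, dark_42 a, dark_14 b, dark_14 a, blue_3 b, blue_3 a, dark_3 b or dark_3 a (adjusted p = 0.0573 to 0.319), with a filter at 5 CPM (adjusted p = 0.0515), with non-robust estimation (adjusted p = 0.0520) and in a fit on the compared libraries alone (adjusted p = 0.0592). TXNRD2 had 10.3 and 10.1 CPM in dark_14, against 14.4 and 18.1 CPM in dark_3, a fall of -0.68 ± 0.21 as a signed difference (adjusted p = 0.0404). It rose again in dark_42 against dark_14 (0.83 ± 0.21, adjusted p = 0.0196). The fall was lost without dark_14 b, dark_14 a, dark_3 b or dark_3 a (adjusted p = 0.0811 to 0.311) and with DESeq2 (adjusted p = 0.0966), and the rise without dark_42 b, dark_14 b or dark_14 a (adjusted p = 0.0828 to 0.141) and with DESeq2 (adjusted p = 0.0510).

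Peroxiredoxins reduce hydrogen peroxide with electrons from thioredoxin, with PRDX3 in mitochondria, PRDX4 in the secretory pathway and PRDX6 drawing on glutathione instead. Of 6 tested, 2, 4 and 4 lay above 0 after 3, 14 and 42 irradiations, with medians of -0.01, 0.02 and 0.08. PRDX1 and PRDX6 were among the steadiest members, at 872 to 1068 CPM and 188 to 233 CPM. PRDX5 (chr11:64318088-64321811, plus strand) had 163 and 128 CPM in blue_3, against 116 and 119 CPM in dark_3. The irradiated libraries were higher, without overlap, by 0.31 ± 0.13 (adjusted p = 0.645), and by 0.12 without blue_3 a or 0.47 without blue_3 b. In dark_14 PRDX5 had 185 and 149 CPM, above dark_3, and that rise passed the test (0.50 ± 0.13, adjusted p = 0.0178). In blue_14 it had 164.7 and 153.5 CPM, which overlapped blue_3, with no call. The PRDX5 call was lost without dark_14 a, dark_3 b or dark_3 a (adjusted p = 0.119 to 0.283), and its value was 0.32 without dark_14 a. PRDX4 (chrX:23664262-23686399, plus strand) fell in dark_14 against dark_3, at 56.6 and 56.5 CPM in dark_14, against 71.3 and 81.3 CPM in dark_3 (-0.43 ± 0.12, adjusted p = 0.0223). In irradiated cells PRDX4 had 57.1 and 59.6 CPM in blue_14, against 76.6 and 70.8 CPM in blue_3, also lower without overlap but not called. The PRDX4 call was lost without dark_14 b, dark_14 a, dark_3 b or dark_3 a (adjusted p = 0.0645 to 0.233). PRDX2 stood at 40.5 CPM in blue_14 b and between 69.2 and 95.7 CPM in the other 11 libraries. PRDX3 ranged from 20.5 CPM in blue_3 b to 37.3 CPM in blue_14 a, and its light differences of -0.35 ± 0.18, 0.39 ± 0.20 and 0.17 ± 0.17 were not called.

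Superoxide is turned into hydrogen peroxide by superoxide dismutase, of which SOD1 is the cytosolic form, and catalase (CAT) breaks hydrogen peroxide down in peroxisomes. SOD1 stood at 190.1 to 247 CPM and CAT at 72.2 to 94.1 CPM over the 12 libraries. Their light differences at the 3 stages were 0.04, 0.07 and 0.09 for SOD1 and -0.02, 0.12 and -0.09 for CAT, each with a standard error of 0.11 to 0.13. Neither gene was called in any comparison. The 3 tested enzymes of the pentose phosphate pathway, which supplies NADPH, had levels as follows. PGD, the phosphogluconate dehydrogenase, stood at 78.1 to 97.7 CPM, the transaldolase TALDO1 at 232 to 299 CPM and the transketolase TKT at 311 to 479 CPM. All 3 lay above 0 after 3 irradiations (median 0.10) and 1 of 3 after 14 and after 42 (medians -0.04 and -0.03), and none was called anywhere.

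The aldo-keto reductases reduce aldehydes and ketones and are known as some of the most NRF2-responsive genes in human cells. AKR1C1, AKR1C2 and AKR1C3 are neighbours of similar sequence on chromosome 10, and reads may have been split between them, so their separate counts are uncertain. All 4 tested genes lay above 0 after 42 irradiations (0.48 to 0.98, median 0.53) and after 14 (0.30 to 0.79, median 0.44), and none after 3 (median -0.11). None was called at any stage. AKR1B10 (chr7:134527592-134541408, plus strand), known for reducing retinal and lipid aldehydes, had 5.29 and 7.39 CPM in blue_42, against 2.17 and 4.28 CPM in dark_42. Both irradiated libraries were higher, by 0.98 ± 0.31 (adjusted p = 0.136). The groups held 102 counts in blue_42 and 50 in dark_42, a ratio of 1.90 with an exact 95% counting interval of 1.34 to 2.73. Over fits without 1 library its difference ran from 0.57 to 1.54, lowest without dark_42 a.

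AKR1C3 (chr10:5035354-5107686, plus strand), which reduces steroids and prostaglandins, had 10.9 and 7.15 CPM in blue_14, against 4.57 and 5.87 CPM in dark_14. The difference was 0.79 ± 0.33 (adjusted p = 0.810), from 53 counts in blue_14 and 62 in dark_14, which gives a ratio of 1.76 (counting interval 1.20 to 2.58). It was 0.40 without blue_14 a. In blue_42 it had 11.3 and 7.03 CPM, against 7.55 and 5.45 CPM in dark_42, and here the libraries overlapped. AKR1C2, the most abundant of the family, had 87.3 and 47.6 CPM in blue_42, against 61.3 and 29.5 CPM in dark_42, so that the libraries within each group lay far apart and the groups overlapped (0.57 ± 0.40, adjusted p = 0.626). AKR1C1, at 2.86 to 7.22 CPM over the 12 libraries, differed by 0.48 ± 0.29 after 42 irradiations (adjusted p = 0.524).

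Along the series AKR1C3 and AKR1B10 were called. AKR1C3 rose in irradiated cells, with 3.84 and 4.53 CPM in blue_3, 10.9 and 7.15 CPM in blue_14 and 11.3 and 7.03 CPM in blue_42. The differences from blue_3 were 1.17 ± 0.33 at 14 (adjusted p = 0.0425) and 1.14 ± 0.28 at 42 (adjusted p = 0.0170). In the dark the same differences were 0.03 ± 0.31 and 0.30 ± 0.29. The light effect after 14 minus that after 3 was 1.14 ± 0.46 (adjusted p = 0.517) and that after 42 minus that after 3 was 0.84 ± 0.41 (adjusted p = 0.452), so the rise is not shown to differ between irradiated and dark cells. The call at 14 was lost without blue_14 b, blue_14 a, blue_3 b, blue_3 a, dark_3 b or dark_3 a (adjusted p = 0.0633 to 0.353) and with DESeq2 (adjusted p = 0.0746). The call at 42 was lost without blue_42 a, blue_3 b or blue_3 a (adjusted p = 0.0719 to 0.212) and with DESeq2 (adjusted p = 0.0570). Without blue_14 a the difference at 14 was 0.77, and without blue_42 a that at 42 was 0.74. AKR1B10 fell in the dark controls, with 2.17 and 4.28 CPM in dark_42, against 7.44 and 5.75 CPM in dark_3 (-1.02 ± 0.32, adjusted p = 0.0293). In irradiated cells the difference of blue_42 from blue_3 was -0.03 ± 0.28. That call was lost without dark_42 a, dark_3 b or dark_3 a (adjusted p = 0.0645 to 0.227), with DESeq2 (adjusted p = 0.0796) and in a fit on the compared libraries alone (adjusted p = 0.0569), and its value was -0.62 without dark_42 a.

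NQO1 (chr16:69706996-69726951, minus strand), the quinone reductase used as a readout of NRF2 activity, showed the largest called fall among members above 10 CPM. In irradiated cells it had 113 and 89.2 CPM in blue_3, 90.7 and 87.2 CPM in blue_14 and 94.9 and 68.1 CPM in blue_42. In the dark it had 138 and 141 CPM in dark_3, 57.8 and 83.3 CPM in dark_14 and 72.0 and 59.1 CPM in dark_42. The 2 dark_3 libraries stood above the other 10. Dark_14 lay below dark_3 by a log2 difference of -0.96 ± 0.18 (adjusted p = 0.00383), and dark_42 by -1.09 ± 0.18 (adjusted p = 0.000780). Both calls held in every alternative that was run, and over fits without 1 library the differences ran from -1.28 to -0.77 and from -1.25 to -0.96. Blue_14 and blue_42 differed from blue_3 by -0.19 ± 0.19 and -0.32 ± 0.18 (adjusted p = 0.608 and 0.323). After 3 irradiations the irradiated libraries were lower than their dark controls (-0.46 ± 0.17, adjusted p = 0.610), and after 14 and 42 the values were 0.31 ± 0.19 (adjusted p = 0.872) and 0.31 ± 0.18 (adjusted p = 0.492). Over fits without 1 library these ran from -0.65 to -0.31 after 3, from 0.10 to 0.62 after 14, lowest without dark_14 a, and from 0.05 to 0.54 after 42, lowest without blue_42 a. The light effect on NQO1 after 14 minus that after 3 was 0.77 ± 0.26 (adjusted p = 0.425), and that after 42 minus that after 3 was 0.78 ± 0.25 (adjusted p = 0.237). Neither was called, except in a fit without a filter on low counts, which called both.

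HMOX1 (chr22:35380361-35394214, plus strand), the inducible haem oxygenase, was close to the limit of detection. It had 13 and 24 counts in blue_3, against 7 and 7 counts in dark_3, or 1.72 and 3.88 CPM and 1.11 and 1.01 CPM. Both irradiated libraries were higher, at a ratio of 2.57 (counting interval 1.36 to 5.15). That interval pools the 2 libraries of a group and leaves out the spread between them. The log2 difference was 1.35 ± 0.49 (adjusted p = 0.559), and it ran from 0.69 to 1.86 over fits without 1 library. In blue_14 it had 2.87 and 3.81 CPM, against 2.0 and 3.44 CPM in dark_14, and in blue_42 1.93 and 2.42 CPM, against 2.05 and 2.47 CPM in dark_42. Libraries overlapped at both stages, and the differences were 0.15 ± 0.49 and -0.05 ± 0.42 (adjusted p = 0.982 and 0.983). The count ratios there were 1.09 (counting interval 0.580 to 1.985) and 0.933 (counting interval 0.567 to 1.53).

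Of the ferritin chains, FTH1 (chr11:61959718-61967660, minus strand) had 2008 and 2416 CPM in blue_14, against 1867 and 1824 CPM in dark_14. The irradiated libraries were higher, without overlap, by 0.26 ± 0.12 (adjusted p = 0.834), or 0.13 without blue_14 b, while after 3 and 42 irradiations the differences were -0.03 ± 0.12 and -0.08 ± 0.12. In GENCODE 29, 62.4% of the exonic bases of FTH1 overlap BEST1 on the opposite strand. No strand setting was stated, so how reads in the shared bases were counted is not known. FTL (chr19:48965301-48966878, plus strand) rose in dark_42 against dark_14, with 355 and 435 CPM in dark_42 and 290.2 and 263 CPM in dark_14 (0.52 ± 0.12, adjusted p = 0.0107). This FTL call was lost without dark_42 b or dark_14 b (adjusted p = 0.100 to 0.119) and in a fit on the compared libraries alone (adjusted p = 0.0653). In irradiated cells FTL had 321.6 and 360 CPM in blue_42, against 298.3 and 302.3 CPM in blue_14, also higher without overlap but not called. Rows named as ferritin pseudogenes held 124 counts for FTH1 and 61 for FTL, or 0.0889% and 0.246% of the counts of each gene. PRDX1 shares 24.9% of its exonic bases with MMACHC on the opposite strand and SLC7A11 8.97% with SLC7A11-AS1.

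**Figure D4:**
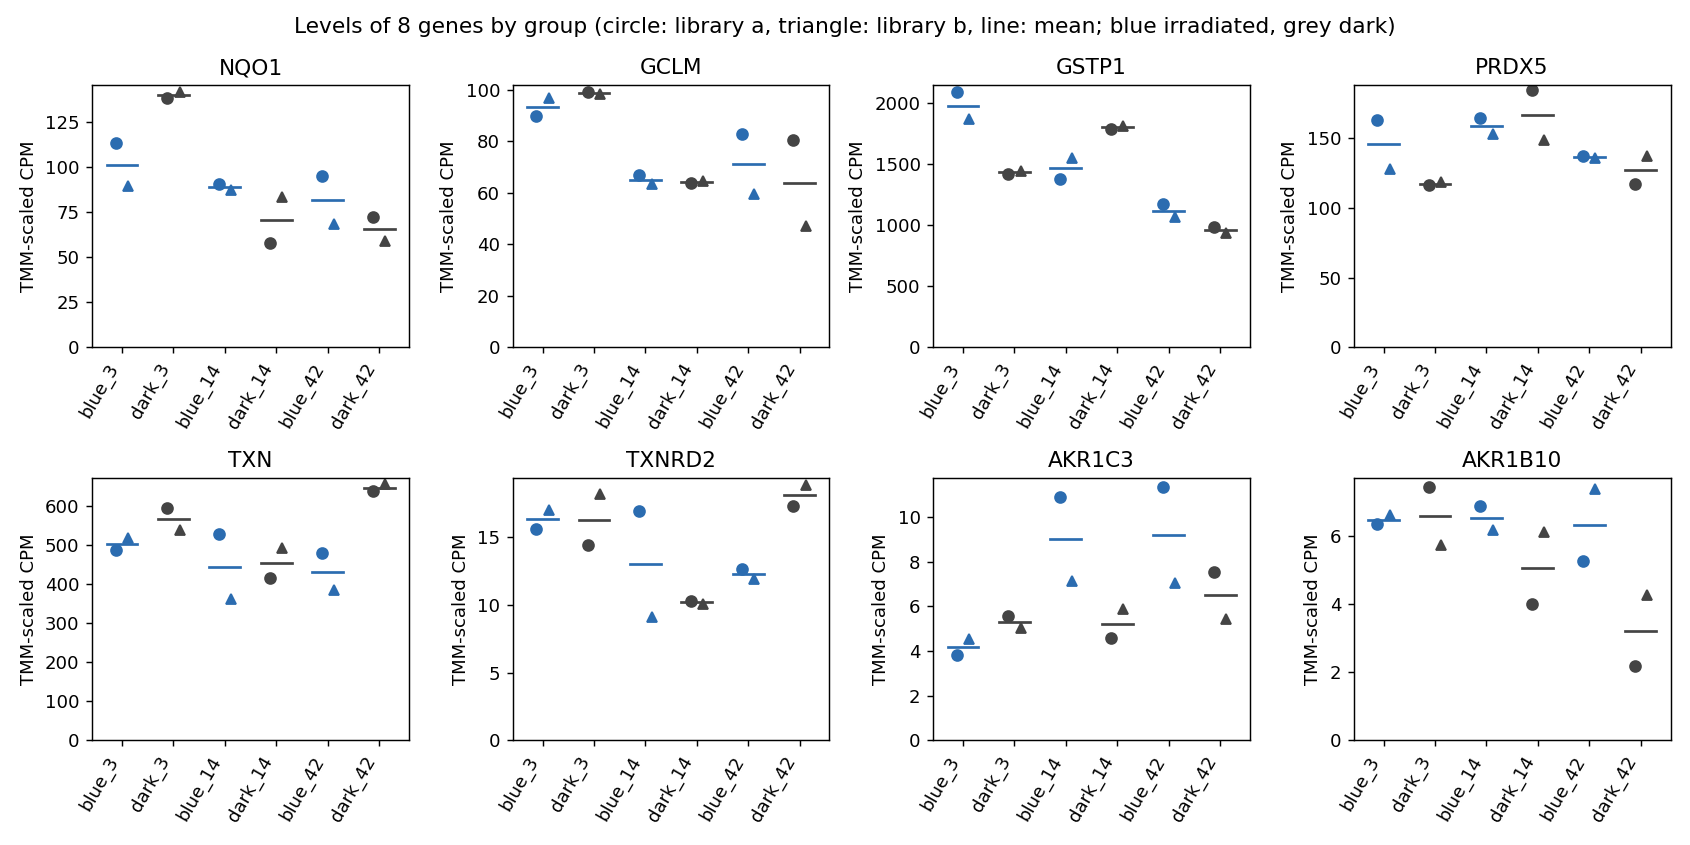
TMM-scaled CPM (vertical axes, from 0) of 8 members in each group, with a circle for library a, a triangle for library b and a line for the mean of 2; irradiated groups are blue and dark controls grey. NQO1 is highest in dark_3, TXN in dark_42, and GSTP1 changes order between irradiated and dark cells from stage to stage.

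Some members differed widely between the 2 libraries of 1 group. In both 42-irradiation groups library b was the lower one for AKR1C2, by a log2 difference of -0.87 in blue_42 and -1.06 in dark_42, and for GCLM, by -0.48 and -0.77. SLC7A11 differed by -0.46 in blue_42 and -0.79 in dark_42, NQO1 by -0.48 and -0.29, and GCLC by -0.61 and -0.20. In dark_14 the same 5 genes lay higher in library b, by 0.39 for AKR1C2, 0.02 for GCLM, 0.29 for SLC7A11, 0.53 for NQO1 and 0.21 for GCLC. The NQO1 values were smaller in size than its called falls from dark_3, which were -0.96 in dark_14 and -1.09 in dark_42. Library b was the lower one for 28 of 37 members in blue_42 and 18 of 37 in dark_42, and the same share over all genes was not counted. In size, the differences of members above 10 CPM had a median of 0.115 in blue_42 and 0.155 in dark_42. Over all genes above 10 CPM the medians were 0.125 and 0.167, so the members as a set were not more spread. In blue_14, library b was lower by -1.10 for PRDX2, -0.90 for TXNRD2 and -0.76 for GSS. These 8 genes were chosen after their values were seen.

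**Figure D5:**
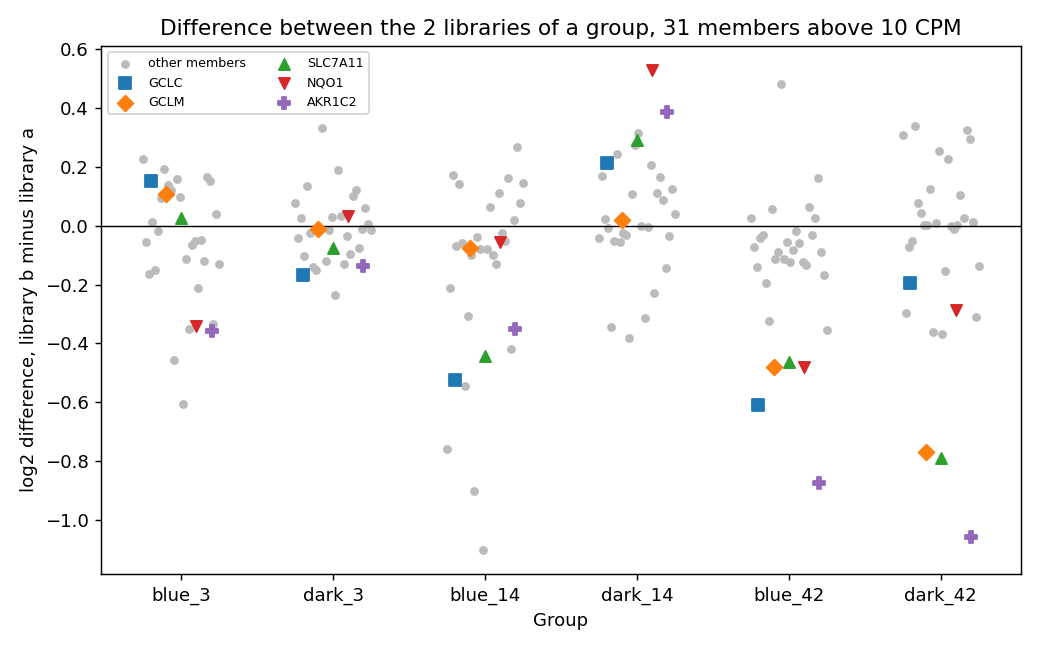
Log2 difference of library b minus library a in each group (horizontal axis) for the 31 members above 10 CPM, with 5 genes marked. AKR1C2, SLC7A11 and GCLM lie at or below -0.46 in both 42-irradiation groups and at or above 0.02 in dark_14.

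Of further genes of the pathway, 33 other NRF2 targets, 15 other regulators, 35 other redox enzymes and 5 NADPH oxidase genes were tested. No gene of these lists was called between irradiated and dark cells at any stage, by edgeR or by DESeq2. At an unadjusted p under 0.05 the lists had, in that order, 3, 1, 5 and 1 genes after 3 irradiations, against 6.92% of all genes. They had 4, 1, 5 and 0 after 14, against 5.89%, and 2, 5, 4 and 2 after 42, against 13.3%. The other NRF2 targets had medians of 0.09, 0.01 and -0.04 at the 3 stages. RBX1, the RING subunit of the Cullin-3 ligase that KEAP1 serves, was the one gene of these lists called by edgeR for a difference between stages in the light effect. It had 105 and 79.8 CPM in blue_3, against 114 and 116 CPM in dark_3. After 42 irradiations it had 122 and 122 CPM in blue_42, against 91.7 and 87.2 CPM in dark_42. Irradiated libraries were thus the lower ones after 3 and the higher ones after 42, and the effect after 42 minus that after 3 was 0.76 ± 0.17 (adjusted p = 0.0487). The RBX1 call was lost without blue_42 b, blue_42 a, dark_42 b, dark_14 b, dark_14 a, blue_3 b, dark_3 b or dark_3 a (adjusted p = 0.0541 to 0.339) and with non-robust estimation (adjusted p = 0.0661). DESeq2 called RBX1 too and, for 14 minus 3, SELENOW, a small selenoprotein with a thioredoxin-like fold. SELENOW had 110.4 and 102 CPM in blue_3, against 88.7 and 74.2 CPM in dark_3. After 14 irradiations it had 72.0 and 78.7 CPM in blue_14, against 103 and 106 CPM in dark_14. By edgeR the effect on SELENOW after 14 minus that after 3 was -0.86 ± 0.17 (adjusted p = 0.0728).

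Along the series, dark_42 against dark_3 had 5 other NRF2 targets higher and 4 lower, 2 regulators higher and 3 lower, and 2 redox enzymes higher and 4 lower, where 9.47% of all genes were called higher and 8.26% lower. In blue_42 against blue_3 the counts were 1 higher and 4 lower, 3 higher and 0 lower, and 1 higher and 3 lower, where 4.4% of all genes were called higher and 3.39% lower. Of the NADPH oxidase genes, 2 were higher and 1 lower in dark_42, and 1 was higher in blue_42. BACH1, the repressor that competes with NRF2 for its sites, was lowest in the groups at 3 irradiations. It had 13.6 and 15.4 CPM in blue_3, 24.4 and 26.2 CPM in blue_14 and 20.4 and 21.2 CPM in blue_42. In the dark it had 14.1 and 13.1 CPM in dark_3, 26.0 and 19.5 CPM in dark_14 and 26.1 and 27.0 CPM in dark_42. All 8 later libraries stood above all 4 at 3 irradiations. Against the groups at 3 irradiations it rose in all 4 comparisons, by 0.97 ± 0.16 in dark_42 (adjusted p = 0.000314), 0.70 ± 0.17 in dark_14 (adjusted p = 0.0107), 0.80 ± 0.18 in blue_14 (adjusted p = 0.0144) and 0.53 ± 0.16 in blue_42 (adjusted p = 0.0481). The call in dark_42 held in every alternative that was run. That in dark_14 was lost without dark_14 a, dark_3 b or dark_3 a (adjusted p = 0.0696 to 0.169). That in blue_14 was lost without blue_14 b, blue_3 b or blue_3 a (adjusted p = 0.0621 to 0.113), and that in blue_42 without blue_42 b, blue_42 a, blue_3 b, blue_3 a, dark_3 b or dark_3 a (adjusted p = 0.0744 to 0.278), with DESeq2 (adjusted p = 0.189) and with the letter as a block (adjusted p = 0.0573).

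SQSTM1, the p62 adaptor that binds KEAP1 and is itself an NRF2 target, also stood higher in every later library. In irradiated cells its level was 403 and 429.8 CPM in blue_3, 566 and 552 CPM in blue_14 and 572 and 582 CPM in blue_42. In the dark it was 391 and 426 CPM in dark_3, 572 and 514 CPM in dark_14 and 658 and 632 CPM in dark_42. The rise was 0.66 ± 0.11 in dark_42 (adjusted p = 0.000273), which held in every alternative that was run. It was 0.47 ± 0.11 in blue_42 (adjusted p = 0.00888), 0.41 ± 0.11 in dark_14 (adjusted p = 0.0164) and 0.43 ± 0.11 in blue_14 (adjusted p = 0.0235). These 3 calls were lost, for blue_42 without blue_42 b, blue_42 a or blue_3 a (adjusted p = 0.0536 to 0.104), for dark_14 without dark_14 a, dark_3 b or dark_3 a (adjusted p = 0.0882 to 0.230), and for blue_14 without blue_14 b, blue_14 a, blue_3 b, blue_3 a, dark_3 b or dark_3 a (adjusted p = 0.0526 to 0.132) and in a fit on the compared libraries alone (adjusted p = 0.0904). ME1, the cytosolic malic enzyme, and MAFG, a small MAF partner of NRF2, were called in no comparison, at 37.2 to 57.5 CPM and 33.6 to 50.8 CPM.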

How the data were processed

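Total RNA of 12 HaCaT libraries was sequenced with QuantSeq 3′ FWD chemistry, per the labels' protocols. The authors deposited raw counts of reads, 1 column a library and 1 row a gene. STAR, featureCounts and GRCh38 are named in the submitters' processing notes. Versions, strand setting and any molecular identifiers were not given in the sources used here. Groups came from the sample titles. The tests used edgeR 4.0.16 under R 4.3.3, on the 12878 genes that passed filterByExpr (minimum count 10). All 12 libraries entered 1 robust quasi-likelihood model with TMM scaling and 6 group means, which left 6 residual degrees of freedom. Two-sided p-values were adjusted with the Benjamini-Hochberg method across these genes. Errors beside log2 differences are standard errors from the test statistic. The 2 libraries of a group never agreed within sampling noise (chi-square over degrees of freedom 1.64 to 8.57), and each counted as 1 replicate. Exact 95% intervals of count ratios and limits from 3 counts cover counting error only.

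The members, the lists of further pathway genes and the cell type markers were chosen with earlier results of these data known. Every member in the table is given at least by its level or range. Library values of the groups compared are given with the difference and adjusted p for members called in any comparison. The same holds for those with an unadjusted p under 0.05 and no overlap of libraries between irradiated and dark cells. It also holds for HMOX1, NQO1 and NFE2L2, while KEAP1 is given by its range and its light differences. Of the further genes, those called for a light effect or its difference between stages are named, and ME1, MAFG, BACH1 and SQSTM1. Some results are not reported here. Positions came from GENCODE 29 on GRCh38, and promoters from RefSeq on GRCh38.p14. Scripts were tested on simulated counts. Alternatives were RLE scaling, DESeq2 1.42.0, no filter, a filter at 5 CPM in 2 libraries, a block for the replicate letter, estimation that was not robust, the compared libraries alone, leaving out the 14-irradiation libraries, and leaving out each library.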

Additional observations from a re-analysis of the deposited data

How the results depend on the processing

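No member was called between irradiated and dark cells after 3 or 14 irradiations in any alternative. After 42 irradiations 1 member, TXN, was called with DESeq2, without a filter on low counts and without the 14-irradiation libraries. For the light effect at 42 minus 3, 1 member (NQO1) was called without a filter. For 14 minus 3 it was 1 (GSTP1) with DESeq2 and 2 (GSTP1 and NQO1) without a filter, and for the average 1 (TXN) without a filter. Dark_14 against dark_3 gave 12 members instead of 7 on the compared libraries alone. Blue_14 against blue_3 gave 1 with DESeq2, 5 without a filter and 1 on the compared libraries alone, instead of 2. Blue_42 against blue_3 gave 1 with DESeq2 and 5 without a filter, instead of 3, and dark_42 against dark_14 gave 2 on the compared libraries alone, instead of 4. The causes were not tested.

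Over the fits without 1 library, the count of called members ran from 0 to 1 for blue against dark after 42 irradiations, for 14 minus 3 and for blue_42 against blue_14. It ran from 1 to 9 for dark_14 against dark_3, from 0 to 4 for blue_14 against blue_3, from 2 to 5 for dark_42 against dark_3, from 1 to 3 for blue_42 against blue_3 and from 1 to 4 for dark_42 against dark_14. The median over members ran across 0 for blue against dark after 3 (-0.034 to 0.028) and 42 irradiations (-0.052 to 0.10), for 42 minus 3 (-0.082 to 0.038), 42 minus 14 (-0.12 to 0.062), dark_42 against dark_14 (-0.012 to 0.080) and blue_42 against blue_14 (-0.077 to 0.10). It kept its sign but ran from -0.16 to -0.017 for blue_14 against blue_3, weakest without blue_14 b, and from -0.16 to -0.024 for dark_42 against dark_3, weakest without dark_3 b. Of the single genes named, those whose direction turned were not called. HMOX1 ran from -0.087 to 0.69 after 14 irradiations and from -0.22 to 0.10 after 42, NFE2L2 from -0.067 to 0.25 after 42, and KEAP1 from -0.048 to 0.082 after 3 and from -0.14 to 0.22 after 42.

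The replicate letters did not pair the libraries across all groups. The differences of library b minus a correlated between groups at -0.442 to 0.405 over 8689 genes, and not every pair of groups was positive. Between irradiated and dark cells of 1 stage the correlation was 0.092 after 3 irradiations and -0.287 after 14. After 42 it was 0.405, the highest of all pairs of groups. Whether the letters pair the libraries within a stage cannot be told from these values. With the letter as a replicate block the counts of called members were 0 for every light comparison, 8 for dark_14 against dark_3, 2 for blue_14 against blue_3, 4 for dark_42 against dark_3, 3 for blue_42 against blue_3, 4 for dark_42 against dark_14 and 0 for blue_42 against blue_14. Fits on the compared libraries alone were not run for the average of the 3 light effects, which uses all groups. Depth limits HMOX1, OSGIN1, GLRX and 3 of the aldo-keto reductases, and blue_14 b, the smallest library, limits the 14-irradiation comparisons.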
